A study of Mus musculus with 10 samples.

Results

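The 47 genes described here encode factors of ribosome biogenesis and of the nucleolus, and they are 47 of the 18194 genes with a single symbol that were measured on Affymetrix mouse expression arrays in primary keratinocytes. The list is a fixed list of gene names, and all 47 were measured. It was chosen with results of these same arrays in view, because several of its genes are lower after differentiation and lower again with A-C/EBP. The genes were thus selected on the differences of differentiated from undifferentiated cells and of A-C/EBP from differentiated cells, and these values are given below as a description. Where a gene is said to have fallen or passed in either of these comparisons, this places it past the threshold that was applied to all genes, and is no independent test of a gene chosen for that difference. The comparison of 5-AZA with differentiated cells did not enter the choice, although it uses the same 4 differentiated arrays.

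The study compared gene expression in keratinocytes before and after differentiation in culture. The labels give FVB mice of postnatal day 1 as the source of the keratinocytes on all 10 arrays, and the methods name wild type FVB newborns or mice with an A-C/EBP transgene. The undifferentiated group (2 arrays) was kept in low calcium medium, and the differentiated group (4 arrays) was held in medium with raised calcium for 2 days. The A-C/EBP group (2 arrays) and the 5-AZA group (2 arrays) were differentiated for 2 days as well. The A-C/EBP protein acts as a dominant negative: it forms dimers with proteins of the C/EBP family that no longer bind DNA. It was expressed from a tetracycline controlled transgene that was switched on by removal of doxycycline after 1 day in culture. Neither the labels nor the methods say whether the other groups carried the transgene. 5-AZA is 5-azacytidine, an inhibitor of DNA methylation. The labels place its addition after 1 day in culture, whereas the methods place it within hours of seeding. No source says that the arrays of a group came from separate cultures, so that the spread between them, which is all that the p-values measure, may be technical.

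Ribosomes are assembled in the nucleolus, where RNA polymerase I transcribes the long precursor of the ribosomal RNAs. The precursor is modified by small nucleolar ribonucleoproteins, of which the box C/D class guides methylation and the box H/ACA class guides pseudouridylation, and it is then cleaved and folded into the small and the large subunit by many processing factors. Proliferating cells, among them the basal cells of the epidermis, are known for prominent nucleoli, and the genes of these factors are textbook targets of the Myc proteins, which bind the E-box CACGTG.

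Promoter sequences of RefSeq (build GRCm38.p6) were available for 41 of the 47 genes, and each covered 250 bases before to 50 after the start of transcription. The E-box CACGTG, which reads the same on both strands, was present in 9 of the 41 promoters (22.0%), in 18 of 88 promoters of other ribosome biogenesis genes (20.5%) and in 10.2% of the 14453 promoters of measured genes. The 6 of these genes with the largest difference on differentiation are shown because this motif is the one most often shared among the promoters searched. The others, Utp20 (-0.56), Pes1 (-0.40) and Imp4 (-0.06), did not pass on differentiation and are not shown. Capitals mark the motif, the position of its first base is counted from the start of transcription, and bases after the start belong to the transcribed region.
Grwd1 (35, chr7:45830740-45830767, minus strand): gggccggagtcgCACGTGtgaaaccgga
Nop2 (-60, chr6:125131811-125131840, plus strand): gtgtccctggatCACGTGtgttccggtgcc
Wdr43 (18, chr17:71616220-71616249, plus strand): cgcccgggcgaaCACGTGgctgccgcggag
Mybbp1a (41, chr11:72441355-72441376, plus strand): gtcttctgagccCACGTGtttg
Tsr1 (25, chr11:74898092-74898121, plus strand): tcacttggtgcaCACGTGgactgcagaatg
Ltv1 (29, chr10:13193092-13193121, minus strand): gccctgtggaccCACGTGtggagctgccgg

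The C/EBP palindrome TTGCGCAA was found in 1 promoter of the 41 (2.44%), that of Bms1, beside 0.27% of the promoters of measured genes. The cyclic AMP response element TGACGTCA, which CREB binds, was also found in 1, that of Noc4l (2.44%, beside 2.92%). The AP-1 site TGACTCA, searched on both strands, was in none, beside 5.33%. These 2 windows are shown because the C/EBP, CREB and AP-1 families are the ones the study was about.
Bms1 (-138, chr6:118419537-118419566, minus strand): tgaaagtgcgcTTGCGCAAccctcagccaa
Noc4l (-32, chr5:110653396-110653425, minus strand): agaggctcgggTGACGTCAcgggcgcgact
A match is a description of the letters in this window and says nothing about binding, and a window without a match says nothing about the factor.

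Levels are the deposited log2 values, averaged over the probe sets of a gene. Over the 10 arrays the median of all probe sets lay between 4.64 and 4.78 and that of the 34958 probe sets with a gene symbol between 5.13 and 5.27, and replicates of a group correlated with r between 0.990 and 0.996. The keratinocyte markers Krt5 (12.75 to 13.93) and Krt14 (11.29 to 12.13) were high in every array. Of 13 fibroblast markers 3 (Dcn, Lum and Pdgfra) lay below the latter median in all arrays, whereas Col1a1 reached 6.19 to 8.36. Of 9 melanocyte markers Dct, Tyrp1 and Pmel were all above 9.89, whereas Tyr (4.52 to 5.46) and Kit (4.77 to 5.44) lay below that median in 7 and 9 arrays. In such bulk samples fewer cells of a type and less RNA per cell cannot be told apart, and the number of arrays limits the precision.

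**Figure D1:**
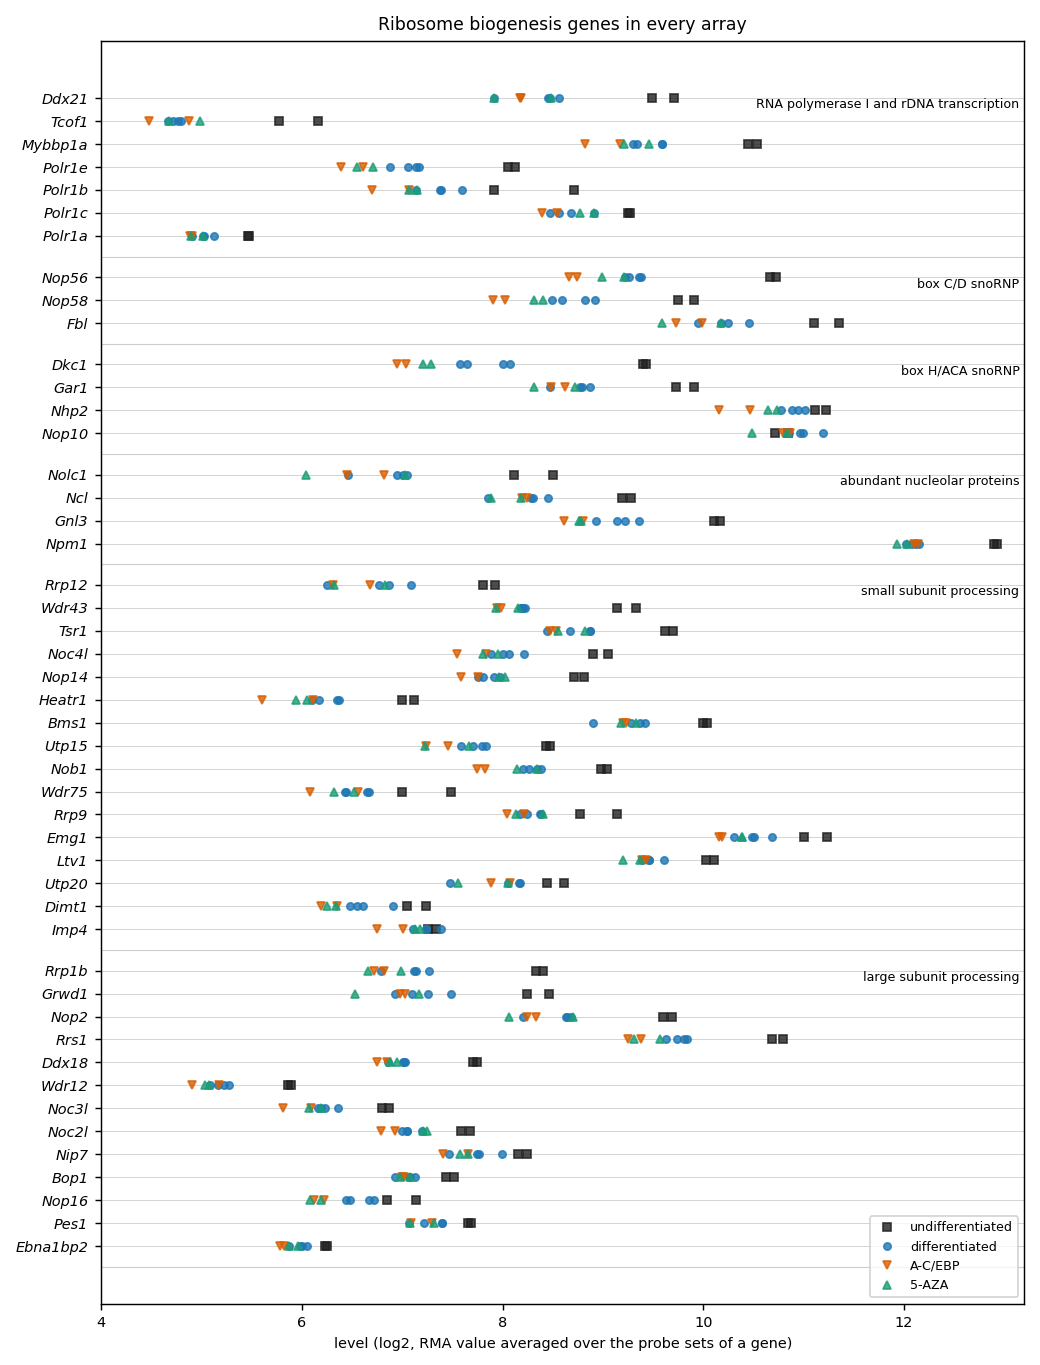
Level (log2) of the 47 genes in each of the 10 arrays, in 6 roles and, within a role, in the order of the difference between differentiated and undifferentiated cells. Each point is an array, and the undifferentiated arrays (squares) lie to the right of all others for most genes, with Nop10 and Imp4 as exceptions; levels of different genes cannot be compared.

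Upon differentiation 46 of the 47 genes had a lower mean than in undifferentiated cells. At a limma adjusted p under 0.05 over all genes, 40 of them fell and 7 did not pass, with no gene that rose, where 9.13% of all 18194 genes fell. The 4 differentiated arrays all lay below both undifferentiated arrays for 45 genes, beside 19.0% of all genes. The t-test named in the methods, there for comparing the means of samples, gave 23 genes that fell after adjustment, beside 2.68%. The methods do not describe its use on single genes. For mRNA changes on differentiation they set a threshold of 0.5 on a log scale. Of the 47 genes 38 were lower by more than 0.5, beside 1614 of all 18194 genes. Nothing is read from these counts, since the comparison served in choosing the genes. The median difference of the 47 genes was -0.81 on the log2 scale (range -1.59 to 0.22), and that of all genes was -0.01. The mean level over the 47 genes was 8.79 and 8.73 in the undifferentiated arrays, 7.89 to 8.06 in the differentiated arrays, 7.71 and 7.65 in A-C/EBP cells and 7.88 and 7.70 in 5-AZA cells.

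All 7 genes of RNA polymerase I and rDNA transcription fell on differentiation, with a median difference of -1.03. Ddx21, a nucleolar RNA helicase, was at 9.49 and 9.71 in the undifferentiated arrays, 8.56, 8.45, 7.91 and 8.48 in the differentiated arrays, 8.18 and 8.18 in A-C/EBP cells and 8.48 and 7.92 with 5-AZA. Its difference on differentiation was -1.25 ± 0.20 (SE), and differentiated replicate 3 and 5-AZA replicate 2 lay below the rest of their groups. Tcof1 encodes treacle, which organizes the transcription of ribosomal RNA genes, and measured 6.16 and 5.78 in undifferentiated cells and 4.72, 4.80, 4.67 and 4.76 in differentiated cells (-1.23 ± 0.15). Outside the undifferentiated arrays it stayed between 4.48 and 4.98, below the median of probe sets with a symbol, and whether its signal there exceeds background was not tested. The subunits of the polymerase itself differed by -0.45 ± 0.09 (Polr1a), -0.94 ± 0.21 (Polr1b), -0.61 ± 0.13 (Polr1c, shared with RNA polymerase III) and -1.03 ± 0.11 (Polr1e). Mybbp1a, a nucleolar protein first known as a partner of Myb, differed by -1.04 ± 0.14. The undifferentiated arrays of Polr1b were themselves 0.79 apart.

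The box C/D proteins had the lowest median of the 6 roles (-1.13), and all 3 fell. Nop56, a scaffold of the box C/D particle, read 10.66 and 10.72 in the undifferentiated and 9.26, 9.38, 9.36 and 9.23 in the differentiated arrays. It was 9.21 and 8.99 with 5-AZA and 8.75 and 8.66 with A-C/EBP, so that the averages of the 4 groups did not overlap and followed this order downward. In the dimmer probe set of Nop56, 5-AZA replicate 1 (9.048) lay above differentiated replicate 4 (9.015). Its partner Nop58 measured 9.91 and 9.75 before and 8.82, 8.50, 8.93 and 8.59 after differentiation, 8.41 and 8.32 with 5-AZA and 8.02 and 7.91 with A-C/EBP, and its groups were separate in the same order. The differences on differentiation were -1.39 ± 0.10 for Nop56, -1.13 ± 0.13 for Nop58 and -1.02 ± 0.19 for Fbl, the rRNA methyltransferase fibrillarin.

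The differences of the 4 box H/ACA proteins ranged from -1.59 to 0.22, and 2 of them fell. Dkc1, the pseudouridine synthase dyskerin, had the largest difference of the 47 genes, -1.59 ± 0.15, a 3.00-fold lower level. It was at 9.40 and 9.43 in undifferentiated cells and at 8.08, 8.01, 7.65 and 7.58 in differentiated cells. With 5-AZA it was 7.29 and 7.20 and with A-C/EBP 6.95 and 7.03, and again the 4 groups were separate in the averages. In the dimmest probe set of Dkc1, A-C/EBP replicate 2 (6.727) lay above both 5-AZA arrays (6.26 and 6.42) and above differentiated replicate 3 (6.716). Gar1, a partner of dyskerin in the same particle, was at 9.91 and 9.73, then at 8.87, 8.77, 8.48 and 8.79 after differentiation, 8.62 and 8.49 in A-C/EBP cells and 8.73 and 8.32 with 5-AZA (-1.10 ± 0.15 on differentiation). The remaining partners differed by little. Nhp2 differed by -0.27 ± 0.11 and did not pass. Nop10 was the only one of the 47 genes with a higher mean, at 10.71 and 10.85 in undifferentiated and 10.99, 10.96, 11.19 and 10.85 in differentiated cells, 10.80 and 10.87 in A-C/EBP cells and 10.49 and 10.84 with 5-AZA. Its difference on differentiation was 0.22 ± 0.13 and did not pass, although none of its differentiated arrays lay below an undifferentiated one.

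All 4 abundant nucleolar proteins fell. Nolc1, which accompanies small nucleolar particles in the nucleolus, was at 8.50 and 8.12 in undifferentiated and 7.05, 6.95, 6.46 and 7.01 in differentiated cells (-1.44 ± 0.27), with 6.82 and 6.45 in A-C/EBP and 7.03 and 6.04 in 5-AZA cells. Its 5-AZA replicate 2 differed from replicate 1 by -0.98, the widest gap of the 47 genes within that group. Ncl, nucleolin, measured 9.28 and 9.19 before and 8.46, 8.29, 7.85 and 8.31 after differentiation (-1.01 ± 0.16), then 8.24 and 8.20 in A-C/EBP cells and 8.18 and 7.89 with 5-AZA. Npm1, nucleophosmin, differed by -0.82 ± 0.09, and Gnl3, the GTP-binding protein nucleostemin, by -0.97 ± 0.12.

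Of the 16 factors of small subunit processing 14 fell, and the median was -0.72. Rrp12, an export and processing factor, was at 7.93 and 7.81 in undifferentiated and 7.09, 6.77, 6.25 and 6.87 in differentiated cells (-1.12 ± 0.23), and at 6.68 and 6.31 in A-C/EBP cells and 6.83 and 6.32 with 5-AZA. Wdr43, of the early processing complex that also engages rDNA transcription, had close differentiated replicates, with 9.14 and 9.34 before and 8.18, 8.19, 8.23 and 8.20 after differentiation. Its difference was -1.04 ± 0.10, and it measured 7.95 and 7.99 in A-C/EBP cells and 8.15 and 7.94 with 5-AZA. Other members of that complex differed by -0.81 (Heatr1), -0.73 (Utp15) and -0.70 (Wdr75). Other factors of the same precursor differed by -0.94 (Tsr1), -0.94 (Noc4l), -0.90 (Nop14), -0.78 (the GTPase Bms1), -0.66 (Rrp9) and -0.59 (Ltv1). Enzymes that act on the small subunit RNA differed by -0.71 (the endonuclease Nob1), -0.62 (the methyltransferase Emg1) and -0.51 (the dimethyltransferase Dimt1). Utp20 (-0.56 ± 0.21) and Imp4 (-0.06 ± 0.11) did not pass. Imp4, a protein of the U3 particle, was the nearest of the 47 genes to no difference, at 7.34 and 7.26 in undifferentiated, 7.24, 7.11, 7.39 and 7.24 in differentiated, 7.004 and 6.75 in A-C/EBP and 7.18 and 7.13 in 5-AZA cells.

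Large subunit factors ranged from -1.29 to -0.27 around a median of -0.60, and 10 of 13 fell. Rrp1b, a nucleolar factor of the large subunit, was at 8.40 and 8.33 before and 7.27, 7.14, 6.79 and 7.12 after differentiation (-1.29 ± 0.14), at 6.82 and 6.72 in A-C/EBP cells and at 6.99 and 6.66 with 5-AZA. Grwd1, a chaperone for histones and a ribosomal protein, measured 8.47 and 8.25 and 7.48, 7.10, 6.92 and 7.26 (-1.17 ± 0.19), then 7.03 and 6.98 in A-C/EBP cells and 7.17 and 6.53 with 5-AZA. Nop2, an rRNA methyltransferase, differed by -1.10 ± 0.18 and Rrs1, which helps to build in the smallest rRNA of the subunit, by -0.99 ± 0.11. The trimeric complex of Pes1, Bop1 and Wdr12 differed by -0.40 ± 0.13, -0.43 ± 0.09 and -0.69 ± 0.10, and Pes1 did not pass. These are averages that include dimmer probe sets, and the brightest probe set of each differed by -0.61, -0.66 and -1.08. Noc2l (-0.56), Noc3l (-0.60) and the helicase Ddx18 (-0.75) fell, and Nip7 (-0.46 ± 0.14) did not pass. Nop16 read 7.14 and 6.85 in undifferentiated and 6.67, 6.44, 6.72 and 6.48 in differentiated cells, a difference of -0.42 ± 0.12. Ebna1bp2 had 6.25 and 6.23 and 6.05, 5.87, 5.99 and 6.00, a difference of -0.27 ± 0.09 that did not pass (-0.72 in its brightest probe set), and was at 5.83 and 5.79 in A-C/EBP cells and 5.96 and 5.87 with 5-AZA.

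**Figure D2:**
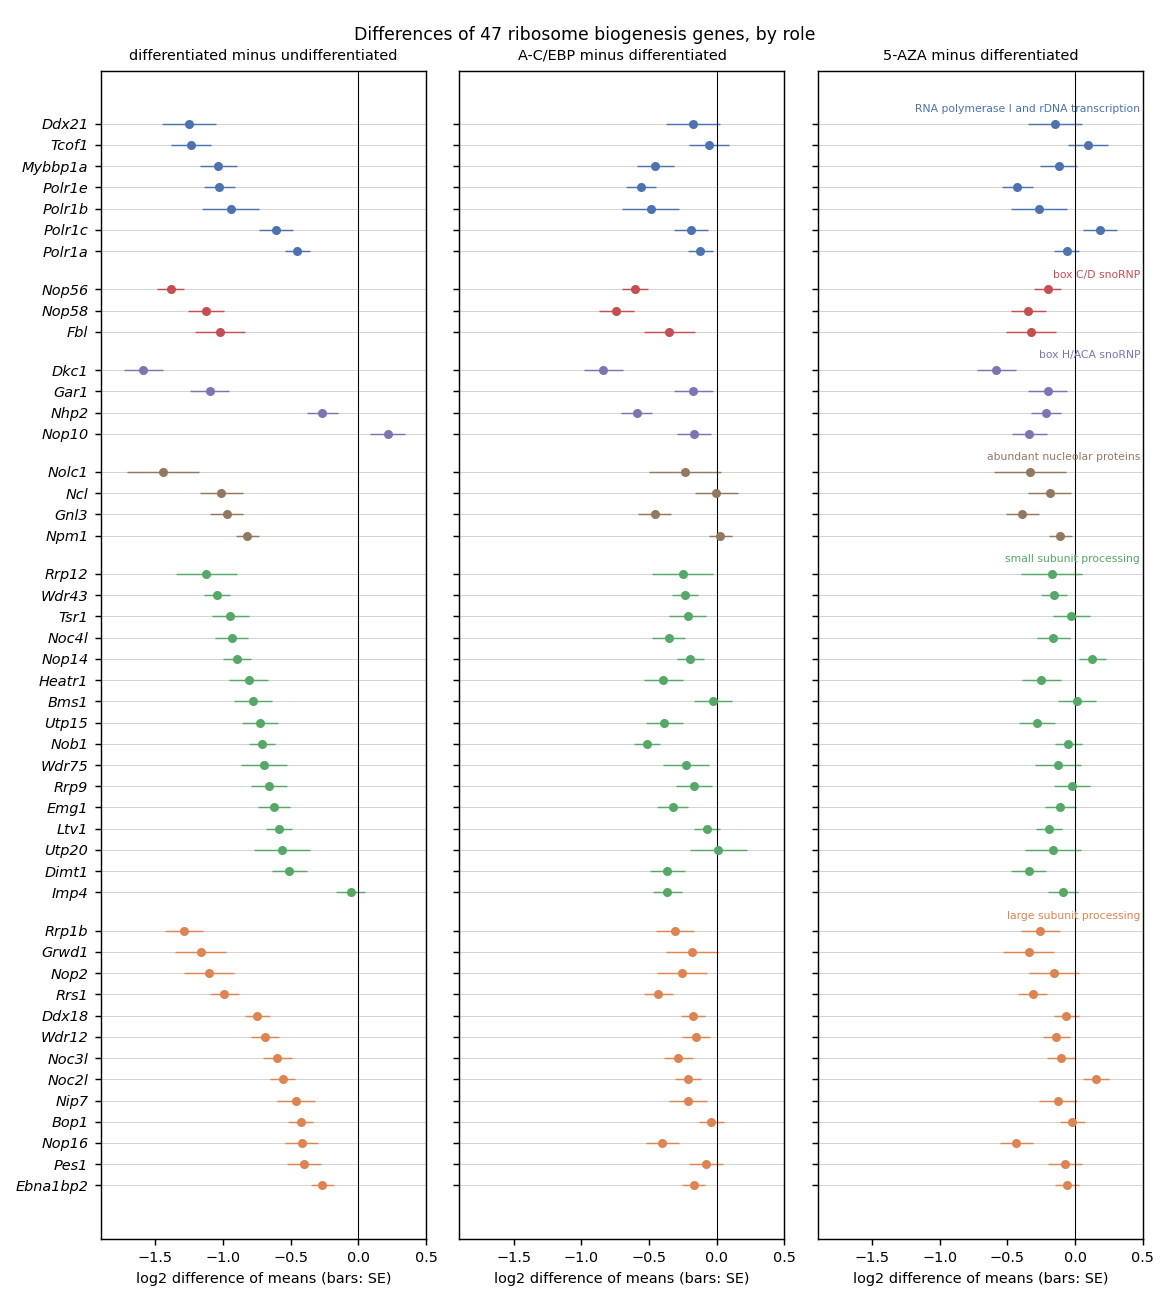
Difference of group means (log2, bars are the SE of the limma fit) of the 47 genes in the 3 comparisons, coloured by role. On differentiation the points run from -1.59 (Dkc1) to 0.22 (Nop10), in A-C/EBP cells from -0.84 (Dkc1) to 0.03 (Npm1) and in 5-AZA cells from -0.58 (Dkc1) to 0.19 (Polr1c).

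The probe sets of a gene did not always agree. The 47 genes had 100 probe sets, of which 95 were lower and 5 higher after differentiation, and 12 genes rested on a single probe set. Ncl, Wdr12 and Ddx18 had probe sets whose differences lay more than 1 apart. In Wdr12 and Ddx18 the probe set without a difference (0.02 and -0.06) was below the median of probe sets with a symbol in all 10 arrays. For 9 genes the brightest probe set differed on differentiation by more than 1.5 times the average, and further from 0 in all 9. Besides Pes1, Bop1 and Wdr12 these were Ebna1bp2 (-0.72 against -0.27), Polr1a (-0.93 against -0.45), Nip7 (-0.75 against -0.46), Noc2l (-0.88 against -0.56), Wdr75 (-1.06 against -0.70) and Imp4 (-0.21 against -0.06). Ebna1bp2 averaged 3 probe sets, of which 2 lay below the median of probe sets with a symbol in all 10 arrays and differed by -0.05 and -0.02. Polr1a averaged 5, of which 2 had mean levels near 3.0. Imp4 had 2 probe sets at -0.21 and -0.31 and 1 at 0.34.

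With A-C/EBP, compared with the differentiated arrays, 45 of the 47 genes had a lower mean and the median difference was -0.23 (all genes 0.01). Dkc1, Nop58, Nop56, Nhp2, Polr1e and Nob1 passed as lower in limma (adjusted p under 0.05), that is 6 of 47, where 0.583% of all genes fell. Both A-C/EBP arrays lay below all 4 differentiated arrays for 23 genes, beside 8.81% of all genes. The methods' t-test gave 0 that fell after adjustment, as over all genes, and 16 without, beside 3.89%. This comparison served in the choice of genes too, and nothing is read from the counts. The 6 calls rested on few arrays. Without differentiated replicate 1, 2 genes passed as lower, where 54 of all 18194 genes fell, against 106 with all arrays. Without A-C/EBP replicate 1 or 2, which leaves 1 array in that group, the median difference was -0.25 or -0.24.

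Of the 6 genes that fell, Nop58, Nop56, Dkc1 and Nhp2 belong to the guiding particles of rRNA modification, and nothing is read from their number. The differences were -0.74 ± 0.13 for Nop58 and -0.60 ± 0.10 for Nop56 among the box C/D proteins, while Fbl differed by -0.35 ± 0.19 and did not pass. Among the box H/ACA proteins Dkc1 differed by -0.84 ± 0.15 and Nhp2, an RNA-binding partner, by -0.59 ± 0.11, whereas Gar1 (-0.17 ± 0.15) and Nop10 (-0.17 ± 0.13) did not pass. Nhp2 was at 10.46 and 10.16 with A-C/EBP, at 11.01, 10.77, 10.94 and 10.88 in the differentiated and 11.22 and 11.12 in the undifferentiated arrays. It was thus the 1 gene of the 6 that had not passed on differentiation, and the other 5 fell in both comparisons.

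Polr1e, an RNA polymerase I subunit, was at 6.61 and 6.39 with A-C/EBP and 7.17, 7.06, 7.14 and 6.88 in differentiated cells (-0.56 ± 0.11), and at 8.12 and 8.05 in undifferentiated and 6.71 and 6.56 in 5-AZA cells. Polr1b (-0.49 ± 0.21) and Mybbp1a (-0.46 ± 0.14) had differences nearly as large that did not pass, and Tcof1 differed by -0.06 ± 0.15. Nob1, which makes the last cut of the small subunit RNA, differed by -0.51 ± 0.10. The averages of the remaining 15 small subunit factors lay between -0.40 (Heatr1) and 0.01 (Utp20). In their brightest probe sets Imp4 (-0.55), Utp15 (-0.52) and Dimt1 (-0.52) were as low as Nob1. No large subunit factor passed, and they lay between -0.43 (Rrs1) and -0.04 (Bop1). The abundant proteins Ncl (-0.01 ± 0.16) and Npm1 (0.03 ± 0.09) were near 0 with A-C/EBP, and Gnl3 was at -0.46 ± 0.12. The Ncl average joined probe sets on both sides of 0. Its brightest were at -0.145 and -0.30, dimmer ones at 0.13 and 0.35, and the dimmest at -0.06. With the brightest probe set in place of the average, 17 of the 47 differences with A-C/EBP moved by over 1.5 times, 13 of them away from 0. Among these, Heatr1 was at -0.13, Mybbp1a at -0.23, Nop16 at -0.65 and Pes1 at -0.36, and Ddx21 (0.11) and Bms1 (0.12) turned above 0.

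With 5-AZA none of the 47 genes passed at a limma adjusted p under 0.05 (two-sided), where 0.286% of all genes rose or fell. At an unadjusted p under 0.05 there were 8 genes with limma, beside 9.10% of all genes, and the methods' t-test gave 0 after adjustment, as over all genes (0.00%), and 5 without, beside 6.63%. The smallest adjusted p was 0.200, for Dkc1. Of the 47 genes 42 had a lower mean than in differentiated cells, with a median of -0.16, while the median of all genes was 0.04. Both 5-AZA arrays lay below all 4 differentiated arrays for 14 genes, beside 5.15% of all genes, and above them for 1, beside 11.2%. The median depended on an array, since it was -0.05 without 5-AZA replicate 2 and -0.24 without 5-AZA replicate 1.

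The largest differences with 5-AZA were those of Dkc1 (-0.58 ± 0.15, limma adjusted p = 0.200), Nop16 (-0.43 ± 0.12, limma adjusted p = 0.266) and Polr1e (-0.43 ± 0.11, limma adjusted p = 0.226). Nop16 was at 6.20 and 6.09 with 5-AZA, at 6.23 and 6.12 with A-C/EBP and at 6.67, 6.44, 6.72 and 6.48 in differentiated cells, so that both 5-AZA arrays lay below all differentiated ones, as they did for Dkc1 and Polr1e. Gnl3 (-0.39 ± 0.12), Nop58 (-0.35 ± 0.13), Dimt1 (-0.34 ± 0.13), Nop10 (-0.34 ± 0.13) and Rrs1 (-0.31 ± 0.11) were lower without overlap as well. The 5 genes with higher means were led by Polr1c (0.19 ± 0.13), Noc2l (0.15 ± 0.09) and Nop14 (0.13 ± 0.10).

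Other genes of the pathway, a list of 105 measured genes written from general knowledge of ribosome biogenesis, were lower after differentiation too. A fall passed for 58 and no rise did, 47 did not pass, and the median was -0.50. The smallest adjusted p were those of Utp4 (-1.19 ± 0.10, limma adjusted p = 6.73e-05), Rcl1 (-1.15 ± 0.12, 0.000202), Wdr3 (-1.03 ± 0.11, 0.000224) and Wdr36 (-1.20 ± 0.14, 0.000326), all factors of the small subunit, while the largest difference was that of Dis3 (-1.32), a nuclease of the exosome. With A-C/EBP none of the 105 passed (22 at an unadjusted p under 0.05, beside 13.6% of all genes), the median was -0.12 and the smallest adjusted p was 0.0733, for Dis3 (-0.65 ± 0.16). With 5-AZA none passed either (4 at an unadjusted p under 0.05), with a median of -0.06. There the smallest adjusted p was 0.391, for Taf1c (0.33 ± 0.11), a subunit of the selectivity factor of RNA polymerase I. Rrn3, an initiation factor of that polymerase, differed by -0.34 ± 0.10 on differentiation and Ubtf, which binds the rDNA promoter, by -0.51 ± 0.18, and neither passed.

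The structural proteins of the ribosome had medians nearer to 0. Of 77 cytosolic ribosomal proteins 43 were measured through probe sets with 1 symbol. Of these Rps9 and Rps20 fell on differentiation and 41 did not pass, with a median of -0.14, and none passed with A-C/EBP (median 0.01, 3 at an unadjusted p under 0.05 in limma) or 5-AZA (median 0.14, 0 at an unadjusted p under 0.05). Rps19, a small subunit protein, was at 13.27 and 13.10 in undifferentiated and 13.30, 12.85, 13.45 and 13.22 in differentiated cells, a difference of 0.02 ± 0.16. Cell cycle genes had medians further from 0. Of 38 genes of S phase and mitosis 37 fell on differentiation (median -1.72), 3 fell with A-C/EBP (median -0.70) and none passed with 5-AZA (median -0.27, 2 at an unadjusted p under 0.05). The part of cell proliferation in the differences of the 47 genes was not tested.

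**Figure D3:**
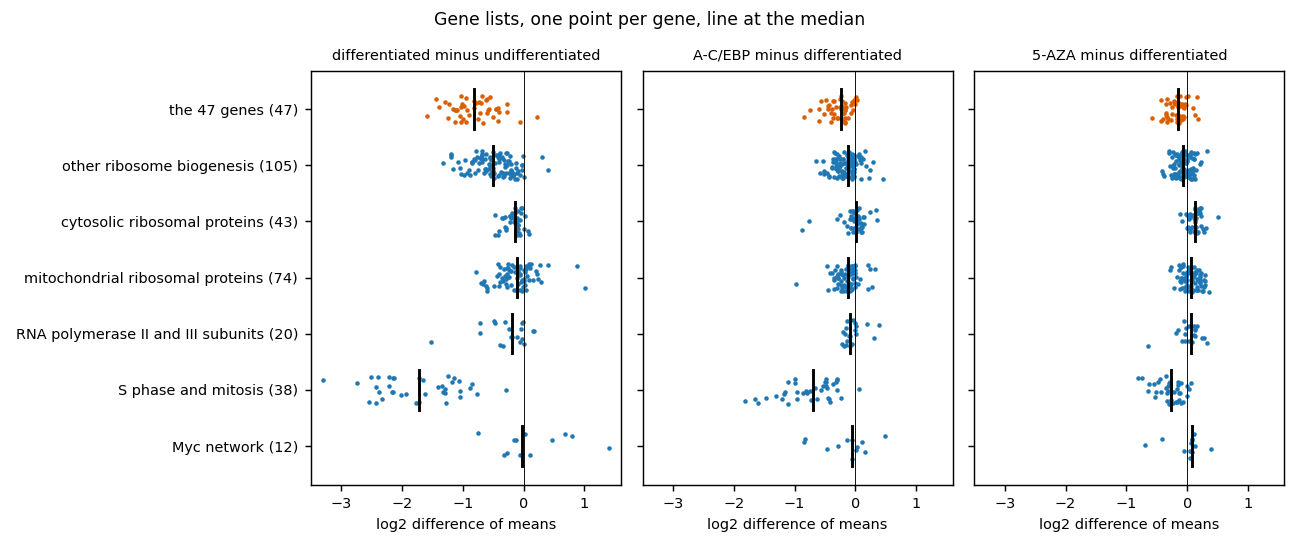
Difference of group means (log2) of each gene of 7 lists in the 3 comparisons, with a line at the median of a list and its number of genes in brackets. The 47 genes have medians of -0.81, -0.23 and -0.16, between those of the S phase and mitosis genes (-1.72, -0.70 and -0.27) and of the cytosolic ribosomal proteins (-0.14, 0.01 and 0.14).

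Of 12 genes of the Myc network Mxd1, Mlx (0.80 ± 0.22) and Mycl (0.68 ± 0.18) rose on differentiation, Mxd4 rose with A-C/EBP (0.49 ± 0.10, limma adjusted p = 0.0352) and none passed with 5-AZA (2 at an unadjusted p under 0.05 in limma). Myc itself was at 10.41 and 10.33 in undifferentiated, 9.82, 9.65, 9.06 and 9.98 in differentiated, 8.96 and 8.64 in A-C/EBP cells and 9.52 and 8.34 in 5-AZA cells. Its differences of -0.75 ± 0.32, -0.82 ± 0.32 and -0.70 ± 0.32 did not pass (limma adjusted p = 0.169, 0.269 and 0.556). Mxd1, a repressor that competes for the same partner, rose on differentiation by 1.41 ± 0.15 (limma adjusted p = 0.000251), from 6.29 and 6.62 to 7.92, 7.63, 7.94 and 7.99. Max, that partner, varied widely between replicates (8.29, 6.94, 8.46 and 8.24 in differentiated cells) and differed by 0.48 ± 0.43. Of the 41 genes with a promoter sequence, the 9 with an E-box had a median difference of -0.94 on differentiation (range -1.17 to -0.06) and the 32 without had -0.74 (range -1.59 to 0.22). Nop2, Grwd1 and Mybbp1a were among the former, with Imp4 at the other end, and the ranges overlapped. Utp20, Pes1 and Imp4 of the former and Nhp2, Nop10, Nip7 and Ebna1bp2 of the latter did not pass on differentiation. That comparison served in choosing the genes, and the part of Myc or of the E-box in the differences was not tested.

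Single arrays departed from their groups in many of the 47 genes at once. Differentiated replicate 1 was the highest of the 4 differentiated arrays for 29 genes and replicate 3 the lowest for 20 and the highest for 11. The 10 genes lowest in replicate 3 against the mean of the other 3 were led by Rrp12 (-0.66), Utp20 (-0.66), Ddx21 (-0.58), Nolc1 (-0.54) and Ncl (-0.50). All 10 were also lower in 5-AZA replicate 2 than in 5-AZA replicate 1, as were 37 of the 47 genes, with a median of -0.51 against -0.09 for the other genes. Over the 47 genes these deviations had a Pearson r of 0.75 and a Spearman rho of 0.73, and they share no array. The same r was 0.56 over all 18194 genes and 0.88 over the 38 genes of S phase and mitosis, so that it extended beyond ribosome biogenesis. Between differentiated replicate 3 and the A-C/EBP pair the r over the 47 genes was 0.07.

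**Figure D4:**
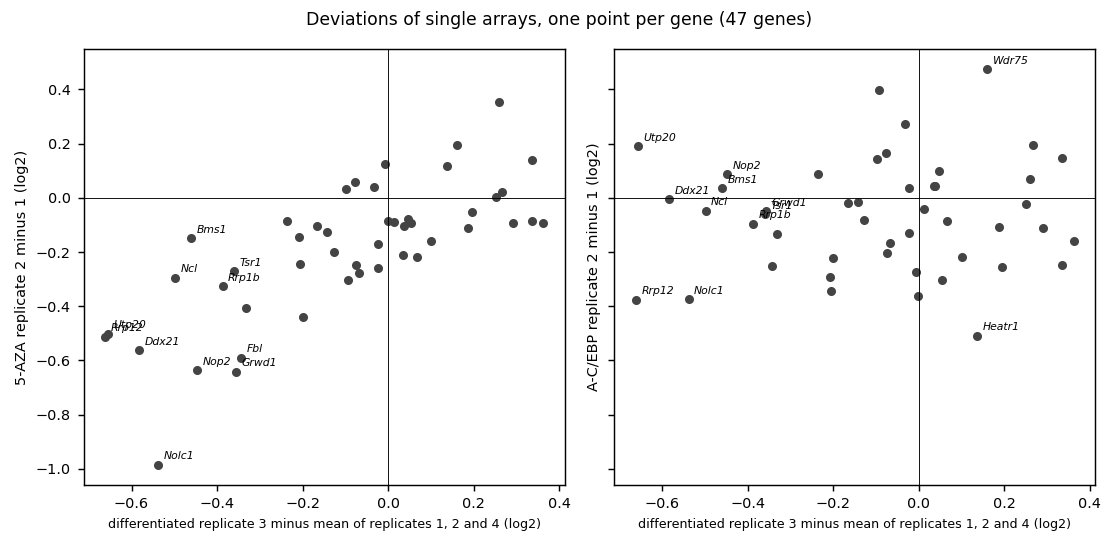
Deviation of differentiated replicate 3 from the mean of the other 3 differentiated arrays (log2) against the difference of replicate 2 and replicate 1 within 5-AZA (left) and within A-C/EBP (right), with a point per gene. The 47 points rise together on the left (r = 0.75) and not on the right (r = 0.07).

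Of the values of RNA quality the actin control stood apart in these 2 arrays and in A-C/EBP replicate 2. The difference between the 3′ and the 5′ probe sets of the actin control was 0.68 in 5-AZA replicate 2, 0.37 in A-C/EBP replicate 2 and 0.36 in differentiated replicate 3, and between 0.09 and 0.24 in the other arrays. In the Gapdh control it was -0.18 to 0.10 without such an order. The mean level of the S phase and mitosis genes was 5.82 in differentiated replicate 3 against 6.34 to 6.65 in the other differentiated arrays, and 5.80 in 5-AZA replicate 2 against 6.28 in replicate 1. Leaving out these 2 arrays left 1 array in the 5-AZA group. The median differences of the 47 genes were then -0.83 on differentiation, -0.28 in A-C/EBP cells and -0.08 in 5-AZA cells. The part of RNA quality in the differences between groups was not tested.

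Marker genes of other cell types were measured in the same arrays. The mean level of the 13 fibroblast markers was 5.25 and 5.90 in undifferentiated, 5.42 to 6.18 in differentiated, 5.13 and 5.59 in A-C/EBP and 5.91 and 6.44 in 5-AZA cells. None of them passed with A-C/EBP (2 at an unadjusted p under 0.05) or with 5-AZA (5), with medians of -0.51 and 0.37. The mean of the 9 melanocyte markers was 7.63 and 7.81 in undifferentiated and 7.35 to 7.71 in differentiated cells. With A-C/EBP it was 7.53 and 8.03, and with 5-AZA 7.99 and 7.98. No melanocyte marker passed with A-C/EBP (0 at an unadjusted p under 0.05 in limma, median 0.235) or with 5-AZA (3, median 0.36). Of the 13 keratinocyte markers 6 fell on differentiation (median -0.60). With A-C/EBP 12 of them had a higher mean (median 0.37) and Krt15 rose. On differentiation the fibroblast marker Thy1 and the immune marker Csf1r rose and the melanocyte marker Tyr and the endothelial marker Egfl7 fell, with list medians of 0.16, -0.18, -0.17 and -0.06. The 10 immune and 8 endothelial markers had means of at most 5.59 and 4.37 in any array. In all arrays 5 of the immune markers (among them Ptprc and Cd207) and 6 of the endothelial ones (among them Pecam1 and Cdh5) lay below the median of probe sets with a symbol. The other immune markers, Lyz2 (6.83 to 9.18), Csf1r (6.25 to 7.49), Tyrobp (6.10 to 7.38), Fcer1g (5.36 to 6.10) and Cd3e (5.39 to 5.81), and the endothelial Kdr (5.28 to 5.71) and Egfl7 (5.62 to 6.08) lay above it in all arrays. The part of these cells in the differences of the 47 genes was not tested.

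**Figure D5:**
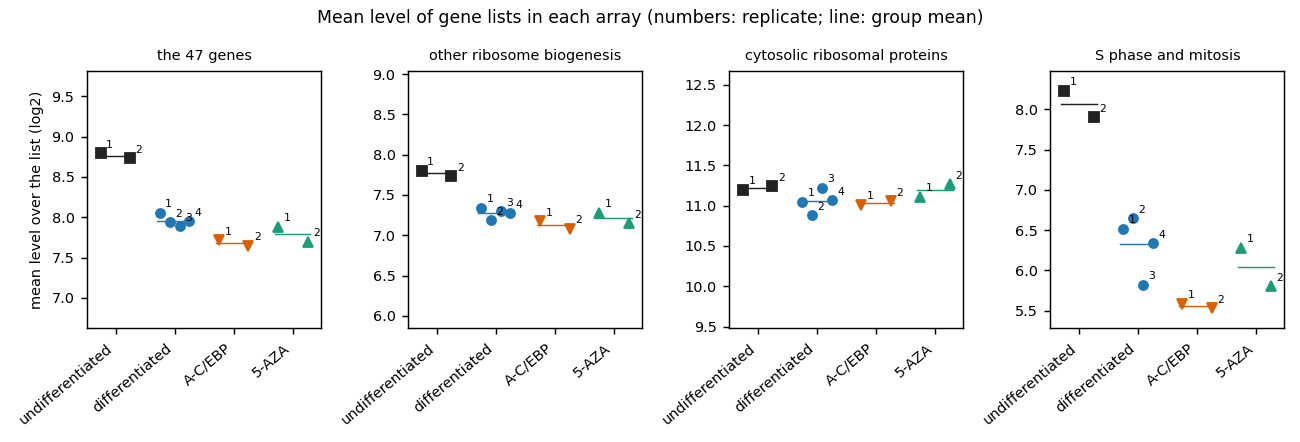
Mean level (log2) over the 47 genes and over 3 other lists in each of the 10 arrays, numbered by replicate, with a line at the mean of a group and the same span on every axis. The 47 genes are at 8.73 and 8.79 in undifferentiated arrays, 7.89 to 8.06 in differentiated arrays, 7.65 and 7.71 in A-C/EBP and 7.70 and 7.88 in 5-AZA arrays, and the cytosolic ribosomal proteins stay between 10.89 and 11.27.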

How the data were processed

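mRNA levels were measured with Affymetrix arrays in 10 samples of mouse keratinocytes. The authors made the deposited log2 values with RMA and Affymetrix Expression Console, per the submitters' processing notes (versions not given). RMA subtracts background, normalizes between arrays and gives a value per probe set. No second normalization was applied. Of 45101 probe sets 34958 carried 1 gene symbol, 932 several and 9211 none, and the first were averaged per gene.

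All arrays entered 1 limma fit (limma 3.58.1, R 4.3.3) with a mean per group and moderated two-sided tests, adjusted by Benjamini-Hochberg over 18194 genes. "Rose" and "fell" mean an adjusted p under 0.05. The fit was tested on simulated data. The 47 genes, the other lists and the tests were chosen with earlier results of these data known. By rule, values in every array are given for the 2 genes of each role with the largest difference on differentiation, the 3 largest in each treatment comparison and the 3 smallest on differentiation, and Rps19, Myc, Max, Mxd1, Rrn3, Ubtf and leading pathway genes are named. Nhp2, single genes of the lists and the deviations of single arrays were described after their values were seen. Alternatives were other probe set choices, scalings, filters, samples and tests, and leaving out each array. The fit without differentiated replicate 3 and 5-AZA replicate 2 was chosen after seeing the data.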

Additional observations from a re-analysis of the deposited data

Results flagged for a closer look

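In the group of 4 differentiated arrays, 2 of the 47 genes had an array far from the others. Nop2 was at 8.21 in differentiated replicate 3 and between 8.64 and 8.68 in the other 3 arrays, a gap of 0.903 of the range. Ddx18 was at 6.86 in differentiated replicate 4 and between 7.01 and 7.03 in the others, a gap of 0.891 of the range. Among 47 genes a few gaps of this size can arise by chance alone.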

How the results depend on the processing

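The direction of the median difference of the 47 genes did not turn in any comparison under any alternative. On differentiation, where 40 genes fell and the median was -0.81, the median was -0.93 with the brightest probe set per gene. Without probe sets that match several transcripts 43 of the 47 genes remained, and their median was -0.73. The methods' t-test gave 23 genes that fell after adjustment (2.68% of all genes). Leaving out each differentiated array in turn gave 38 to 41 genes, beside 1431 to 1545 of all 18194 genes. Without undifferentiated replicate 1 or 2, which leaves 1 array in that group, the median was -0.80 or -0.85. With A-C/EBP, where 6 genes fell and the median was -0.23, the count was 10 after quantile normalization, 1 with differentiated arrays 1 and 2 only, 0 with arrays 3 and 4 only and 1 with only the compared groups in the fit. The methods' t-test gave 0 after adjustment (0.00% of all genes) and 16 without (3.89% of all genes fell), and limma 20 at an unadjusted p under 0.05 (13.6%). The median was -0.32 with the brightest probe set and -0.30 with differentiated arrays 1 and 2 only. Leaving out each differentiated array gave 2 to 4 genes (2 without differentiated replicate 1), beside 46 to 105 of all 18194 genes. With 5-AZA none passed and the median was -0.16. There 1 gene differed by more than 0.5, where 380 of all 18194 genes were lower and 344 higher by more than 0.5. The methods' t-test gave 5 without adjustment (6.63% of all genes), and leaving out each array gave medians of -0.24 to -0.05. Arrays of the same number deviated together (r of 0.09 to 0.43), yet only 2 numbers are shared, so that they are not taken as pairs. With the replicate block, which then rests on arrays 1 and 2 of each group, the median with A-C/EBP was -0.30 and 1 gene (Dkc1, -0.80) passed with 5-AZA. The causes of these shifts were not tested. No named gene that passed changed its direction. Where leaving out an array left a group with 1, that array was assumed to vary like the other groups. Over all genes, 106 fell with A-C/EBP, with 8 to 269 under the limma alternatives, and 21 fell and 31 rose with 5-AZA, with 0 to 185 and 0 to 213. After median centring 33 fell and 30 rose with 5-AZA.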

Other observations

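Other families had medians nearer to 0 on differentiation than the 47 genes. Of 74 mitochondrial ribosomal proteins 10 fell and 3 rose on differentiation (median -0.11), 1 fell with A-C/EBP (median -0.12) and none passed with 5-AZA (median 0.06, 6 at an unadjusted p under 0.05). Of 20 subunits of RNA polymerases II and III 4 fell on differentiation (median -0.20) and none passed with A-C/EBP (2 at an unadjusted p under 0.05) or 5-AZA (3). Among the other ribosome biogenesis genes Wdr36 had a higher mean with A-C/EBP (0.45 ± 0.14, limma adjusted p = 0.151) after its fall on differentiation, whereas Utp4 (-0.38 ± 0.10, 0.091), Wdr74 (-0.47 ± 0.12, 0.0962) and Ddx52 (-0.34 ± 0.10, 0.147) had lower means, and none of these passed in limma. With 5-AZA the next smallest adjusted p after Taf1c were those of Wdr36 (0.401), Ddx10 (0.531) and Krr1 (0.546). The 5′ probe set of the 18S rRNA control ranged from 6.01 (differentiated replicate 3) to 14.2 (A-C/EBP replicate 2), with overlap between groups.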
